A study of Mus musculus with 24 samples.

Results

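Whole crypts from the jejunum of mice in which Apc had been deleted, with the Notchless gene Nle1 left in place, were compared with crypts of Control mice 48 h after induction. The members were the 3 libraries labelled with the ApccKO genotype on day 2 and the 3 Control libraries of that day, chosen by these labels alone out of 24 libraries. The study sequenced polyadenylated RNA of jejunal crypts from 4 genotypes, Control, NlecKO, ApccKO and the knockout of both genes, at 24 h (day 1) and 48 h (day 2). Each of the 8 groups had 3 mice, with 1 mouse per library. Every mouse of every group, aged 5 to 10 weeks, had received tamoxifen by intraperitoneal injection at 56 mg/kg on each of 3 consecutive days. All 12 mice of the groups used here shared the tamoxifen, none was labelled with loss of Nle1, and the ApccKO label adds the conditional loss of Apc. The sources used here do not give the Cre driver, the mouse strain or the alleles that Control mice carried, nor the share of crypt cells that had recombined.

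The APC protein is the scaffold of the destruction complex, in which axin, casein kinase 1 and glycogen synthase kinase 3 mark beta-catenin for degradation. Wnt ligands that bind Frizzled and LRP receptors halt this complex, and so does loss of APC. Beta-catenin then enters the nucleus and works with TCF and LEF factors on Wnt target genes. In the small intestine this signal is strongest at the crypt base, where it maintains the Lgr5-expressing stem cells and their Paneth cell neighbours, and loss of APC is a common first step towards intestinal adenoma.

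The 6 libraries held 18.86 to 25.78 M estimated counts each, of which 99.92% to 99.94% fell on the 16552 genes tested, so depth differed little between the groups apart from Control replicate 2, the deepest. Levels are given as CPM (counts scaled to library size by TMM), with ± as the SD over 3 mice. Differences are log2 fold changes of ApccKO over Control with ± as their SE. All adjusted p-values are Benjamini-Hochberg values over these 16552 genes from the quasi-likelihood test of edgeR. The words rose, fell, higher and lower are used only below an adjusted p of 0.05. Across genes, which are not independent replicates, Pearson's r of log2 CPM was 0.9769 to 0.9884 within the groups and 0.8988 to 0.934 between them, and the first principal component of the 6 libraries (78.81% of the variance) separated the genotypes. The second (7.27%) set Control replicate 2 apart from the other Control mice. That library had fewer enterocyte transcripts and more immune cell transcripts than the other Control libraries, so sums over these lists are given with and without it. Y-linked genes marked 1 library as male in each group. In the submitters' code numbers the Apc-lost libraries form 1 run between runs of Apc-intact libraries, so a batch or drift along the codes cannot be told apart from Apc loss. The tissue label was checked on 10 markers of epithelium. Their summed level was 11100, 9840 and 10400 CPM in Control and 8080, 9710 and 8730 CPM in ApccKO libraries, or 84.7% of Control. Each ApccKO sum was below each Control sum. Of the 10 markers 5 were lower and 2 higher (median -0.296). Krt20 fell (-2.23 ± 0.48, adjusted p = 0.00078) and Krt18 rose (1.65 ± 0.19, adjusted p = 6.7e-07). Epcam, which encodes an epithelial adhesion protein, averaged 1110 CPM in Control and 1230 CPM in ApccKO mice and did not pass (adjusted p = 0.29). In RNA of whole crypts, fewer cells of a type and less RNA per cell cannot be told apart.

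At 48 h 9708 genes, 58.7% of those tested, differed between ApccKO and Control mice. Of all genes tested 4839 (29.2%) were higher and 4869 (29.4%) lower. These are differences between the labelled groups, and below the effect of Apc loss stands for them. At least 2-fold changes were more often falls, with 1605 genes (9.7%) higher and 2388 (14.4%) lower by that measure. Values of the 2 groups did not overlap for 63.6% of all genes tested. These shares are the background for every list, and a list is described by its counts and its median log2 change, beside a median of 0.02 over all genes tested.

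The targeted gene was read first. Apc (ENSMUSG00000005871) was counted at 142, 112 and 149 CPM in Control and 140, 129 and 135 CPM in ApccKO mice, and the groups overlapped (0 ± 0.08, adjusted p = 0.97). Counts over a whole gene do not show the deletion of a part of it, so the Apc transcript does not check the labels. Nle1 (ENSMUSG00000020692), which was not targeted in these mice, was at 20.1, 27.9 and 20.1 CPM in Control and 36.2, 34.3 and 34.2 CPM in ApccKO mice. All 3 ApccKO mice were above all 3 Control mice (0.62 ± 0.16, adjusted p = 0.0024).

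Genes with at least 5 CPM on average over the 6 libraries and no overlap between the groups were ranked by their log2 change, and the 12 at each end were read. The raised end was led by genes that Control crypts hardly expressed. H19 (ENSMUSG00000000031), an imprinted long non-coding RNA of fetal tissue, was at 0.0582, 0.148 and 0.321 CPM in Control and 31, 19.6 and 38 CPM in ApccKO mice. It had 11 counts in all 3 Control libraries together and 1967 in the ApccKO libraries, a ratio of 168 with a 95% counting interval of 93.9 to 338. Tnfrsf11b (ENSMUSG00000063727), which encodes the decoy receptor osteoprotegerin, was at 0, 0.223 and 0.0535 CPM in Control and 10.6, 13.8 and 14.2 CPM in ApccKO mice (7 against 855 counts, ratio 115, interval 55.6 to 287). The homeobox gene Msx1 (ENSMUSG00000048450) was at 0, 0.556 and 0.107 CPM in Control and 35.2, 26.5 and 19.2 CPM in ApccKO mice (17 against 1810 counts, ratio 100, interval 62.4 to 172). In each of these 3 genes the lowest ApccKO mouse stood far above the highest Control mouse. Clu (ENSMUSG00000022037), which encodes the secreted chaperone clusterin, combined a large rise with a high level, at 2.62, 3.93 and 2.68 CPM in Control and 214, 248 and 328 CPM in ApccKO mice (6.39 ± 0.53, adjusted p = 3.3e-08). The collagen gene Col16a1 rose from 0.69 ± 0.47 to 75.2 ± 18 CPM (6.66 ± 0.83, adjusted p = 3.3e-06), the epithelial transcription factor gene Grhl3 from 0.204 ± 0.11 to 17.6 ± 4.2 CPM (6.29 ± 0.78, adjusted p = 2.8e-06) and the autophagy gene Atg9b from 0.999 ± 0.5 to 76.5 ± 4.1 CPM (6.17 ± 0.81, adjusted p = 6.2e-06). Asb4, Faim2 and Fstl4 (log2 changes of 5.11 to 5.53), the Wnt inhibitor Notum and the ribosomal protein gene Rps3a1 complete the raised end.

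The lowered end held Sco2 and Car4. Sco2 ranked first by its fitted value, but its 0 counts in ApccKO mice allow only a bound. Its place against Car4 is therefore not settled. Car4 (ENSMUSG00000000805), a carbonic anhydrase of the brush border, was at 230, 139 and 217 CPM in Control and 0.217, 0.226 and 0.0465 CPM in ApccKO mice. The 11756 counts of the Control libraries stood against 11 in the ApccKO libraries, a ratio of 1140 (634 to 2280). Slco2b1 (ENSMUSG00000030737), an organic anion transporter, was at 116, 94.7 and 105 CPM in Control and 0.651, 1.35 and 0.698 CPM in ApccKO mice (-6.86 ± 0.43, adjusted p = 1.2e-09). Both genes were low in all 3 ApccKO mice, and the groups were separated by a wide gap. The gluconeogenic enzyme genes Pck1 (from 231 ± 170 to 1.19 ± 0.14 CPM; -7.6 ± 0.94, adjusted p = 3.1e-06) and G6pc (from 32.1 ± 16 to 0.167 ± 0.1 CPM; 1866 against 11 counts, ratio 180, interval 100 to 362) fell as well. So did the glucose transporter family gene Slc5a4a (from 38.3 ± 25 to 0.104 ± 0.065 CPM; ratio 325, interval 157 to 809) and Ugt2b5 (from 71.4 ± 38 to 0.0606 ± 0.069 CPM; ratio 1090, interval 424 to 3990), a glucuronosyltransferase. Gasdermins Gsdmc2, Gsdmc3 and Gsdmc4 had ratios of 294, 289 and 537, but 51.2% to 63.9% of the 31-base words of these copies also occur in related genes. The same holds for 56.4% of the words of Ugt2b5, so the separate values are uncertain. The receptor tyrosine kinase gene Ros1 (694 against 5 counts, ratio 147, interval 62.9 to 456) and the endocytosis gene Amph (739 against 3 counts, ratio 262, interval 89.2 to 1270) also belong to this end. Sco2 had 389, 169 and 363 counts in Control and 0 in each ApccKO library, at least 326-fold lower with a floor of 3 counts over the group. Of its words 89.7% also occur in other genes, 66.2% in its neighbour Tymp, so reads of the pair may be split between them. The counting intervals cover counting error only.

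**Figure D1:**
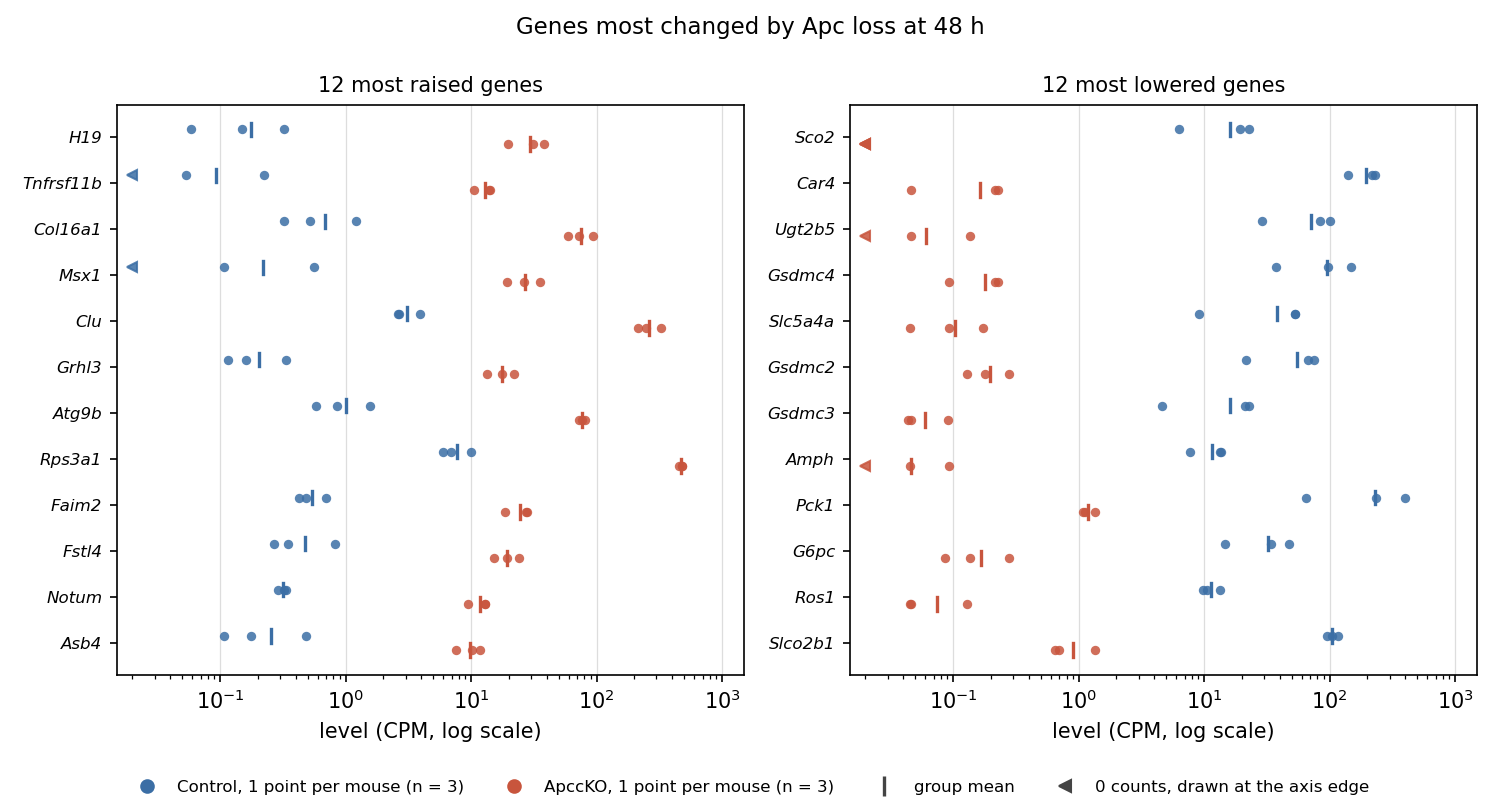
Levels in CPM (log scale, horizontal axis) of the 12 most raised and 12 most lowered genes in the 3 Control and 3 ApccKO libraries of day 2; points are mice, vertical ticks are group means, and triangles at the axis edge mark libraries with 0 counts. Groups without overlap were a condition of the ranking. Among the raised genes H19 is at 0.0582 to 0.321 CPM in Control against 19.6 to 38 CPM in ApccKO libraries.

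The Wnt pathway was read by role, first at the level of ligands and receptors. Of 19 tested members, 9 were higher and 4 lower, with a median of 0.56. Wnt3 (ENSMUSG00000000125), the main Wnt ligand of Paneth cells, was at 6.98, 10.1 and 7.01 CPM in Control and 29.2, 34.8 and 37.5 CPM in ApccKO mice (2.06 ± 0.19, adjusted p = 3.4e-08). Among the Frizzled receptors 2 moved in opposite directions. Fzd7 (ENSMUSG00000041075), a receptor of crypt base stem cells, was at 24.1, 31 and 27 CPM in Control and 82.1, 73.7 and 80.3 CPM in ApccKO mice (1.52 ± 0.11, adjusted p = 1.2e-09). Fzd5 (ENSMUSG00000045005), the Frizzled of the mature epithelium and of Paneth cell maturation, was at 396, 401 and 416 CPM in Control and 67.4, 63.3 and 61.7 CPM in ApccKO mice (-2.66 ± 0.11, adjusted p = 8.7e-13). The groups did not overlap in either gene. Lgr4, a receptor for R-spondins, rose from 142 ± 6.2 to 235 ± 8.4 CPM (0.73 ± 0.09, adjusted p = 1.2e-06).

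In the destruction complex the changes were small, with 5 of 10 tested genes higher, 1 lower and a median of 0.21. Without Control replicate 1, or without ApccKO replicate 3, 3 were higher, and 2 in a fit to the 6 libraries alone. Without Control replicate 1, 0 were lower. The member that moved most was Csnk1e (ENSMUSG00000022433), an epsilon isoform of casein kinase 1, at 15.6, 27.4 and 18.8 CPM in Control and 104, 95.5 and 104 CPM in ApccKO mice (2.29 ± 0.17, adjusted p = 1.7e-09). Ctnnb1, the gene of beta-catenin itself, was at 817, 665 and 803 CPM in Control and 887, 945 and 965 CPM in ApccKO mice (0.29 ± 0.09, adjusted p = 0.009), and this call was lost without Control replicate 2 (adjusted p = 0.064).

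Among the 4 TCF and LEF factor genes, 2 rose and 2 did not pass (median 1.42). Lef1 (ENSMUSG00000027985), nearly silent in Control crypts, was at 0.931, 1.26 and 0.75 CPM in Control and 11.4, 8.75 and 10.6 CPM in ApccKO mice (3.35 ± 0.28, adjusted p = 1.1e-08). Tcf7 (ENSMUSG00000000782) was at 12.4, 18.6 and 16.1 CPM in Control and 79.5, 63.2 and 76.6 CPM in ApccKO mice (2.21 ± 0.13, adjusted p = 9.9e-11). Tcf7l2, which encodes TCF4, the main TCF of the adult crypt, was at 39.5, 32.8 and 36.8 CPM in Control and 34.7, 34.6 and 34.8 CPM in ApccKO mice and did not pass (-0.07 ± 0.1, adjusted p = 0.58). The groups of Lef1 and Tcf7 were far apart, and those of Tcf7l2 overlapped.

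Feedback inhibitors, which Wnt signalling induces and which then restrain it, rose in 9 of 14 tested members and fell in 2 (median 1.32). The lower count was 1 by DESeq2 and without any 1 of Control replicates 1 and 3 and ApccKO replicates 1, 2 and 3. Axin2 (ENSMUSG00000000142), an axin of the destruction complex and a general Wnt reporter, was at 110, 166 and 116 CPM in Control and 539, 506 and 493 CPM in ApccKO mice (1.97 ± 0.15, adjusted p = 3.1e-09). Nkd1 (ENSMUSG00000031661), an inhibitor of Dishevelled, was at 6.4, 10.7 and 4.93 CPM in Control and 125, 90.3 and 112 CPM in ApccKO mice (3.87 ± 0.27, adjusted p = 2.1e-09). Notum (ENSMUSG00000042988), a secreted enzyme that removes the lipid from Wnt ligands, was at 0.291, 0.334 and 0.321 CPM in Control and 12.9, 9.38 and 13 CPM in ApccKO mice (20 against 785 counts, ratio 36.9, interval 23.8 to 60.8; 5.18 ± 0.37, adjusted p = 1.5e-09). All 3 were higher in every ApccKO mouse than in any Control mouse. Other genes hold 33% of the words of Notum, its antisense transcript Notumos 26.2%, and the sources used here do not say whether the libraries kept strand. Rnf43 and Znrf3 encode the ubiquitin ligases that remove Frizzled from the surface; they rose from 91.8 ± 10 to 348 ± 33 CPM (1.92 ± 0.09, adjusted p = 6.4e-12) and from 20.7 ± 2.8 to 53.2 ± 2.9 CPM (1.36 ± 0.13, adjusted p = 4.4e-08).

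Among 23 other Wnt target genes 18 were higher, all of them at least 2-fold, and 5 did not pass (median 1.71). By edgeR, DESeq2 or an unadjusted p under 0.05, 0 were lower. Myc (ENSMUSG00000022346), a transcription factor that drives cell growth, was at 82.9, 121 and 105 CPM in Control and 294, 268 and 274 CPM in ApccKO mice (1.44 ± 0.2, adjusted p = 6.2e-06). Sox9 (ENSMUSG00000000567), a crypt base transcription factor, was at 56.2, 84.4 and 63.3 CPM in Control and 292, 288 and 282 CPM in ApccKO mice (2.08 ± 0.2, adjusted p = 9.6e-08). Cd44 (ENSMUSG00000005087), the hyaluronan receptor of crypt cells, was at 35.5, 54.4 and 44.4 CPM in Control and 375, 327 and 372 CPM in ApccKO mice (3 ± 0.25, adjusted p = 1.5e-08). These values did not overlap either. Ascl2, the stem cell regulator, rose from 15.4 ± 3.5 to 50.4 ± 5.2 CPM (1.7 ± 0.17, adjusted p = 7.7e-08), Ephb2 from 119 ± 18 to 260 ± 21 CPM (1.13 ± 0.11, adjusted p = 8.8e-08) and Ephb3 from 38.6 ± 13 to 253 ± 8.4 CPM (2.7 ± 0.18, adjusted p = 6.5e-10). Cyclin D1, Ccnd1, often named as a Wnt target, was at 103, 166 and 106 CPM in Control and 190, 180 and 176 CPM in ApccKO mice and did not pass (0.54 ± 0.25, adjusted p = 0.074; 0.017 without Control replicate 2 and 0.047 by DESeq2).

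Promoter windows of the Wnt feedback inhibitors and the other Wnt targets were searched for the TCF words CTTTGAA and CTTTGAT on both strands of the 250 bases before each start. Of 39 symbols 24 had a window in the RefSeq table (GRCm38.p6), and 4 of their 29 windows held a match (13.8%, against 7.48% of 32851 windows of all genes): those of Sp5, Mmp7, Tnfrsf19 and Tiam1. A match describes the letters and is not a binding site. The windows of the Wnt-induced repressor Sp5 and of the receptor gene Tnfrsf19 are shown because both genes are named targets with a match. Capitals mark the match, which begins 104 bases before the start of Sp5 (chr2:70474779-70474865, plus strand) and 202 bases before that of Tnfrsf19 (chr14:61038143-61038229, minus strand), where it reads on the opposite strand.
Sp5: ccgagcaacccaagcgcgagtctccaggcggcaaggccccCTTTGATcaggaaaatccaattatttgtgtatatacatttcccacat
Tnfrsf19: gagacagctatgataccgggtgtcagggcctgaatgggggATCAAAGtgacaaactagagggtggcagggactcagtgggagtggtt
Sp5 (ENSMUSG00000075304) was at 22.6, 12.4 and 17.1 CPM in Control and 121, 89 and 120 CPM in ApccKO mice (2.67 ± 0.22, adjusted p = 1e-08). Tnfrsf19 (ENSMUSG00000060548), also a marker of crypt base cells, was at 4.77, 8.53 and 5.62 CPM in Control and 117, 96.3 and 124 CPM in ApccKO mice (4.13 ± 0.27, adjusted p = 9.1e-10). In both genes the ApccKO mice lay well above the Control mice. The other 2 genes with a match, Mmp7 (104 to 744 CPM, 2.84, adjusted p = 1.3e-06) and Tiam1 (29.6 to 76.6 CPM, 1.37, adjusted p = 9.1e-07), rose too. In the 2 lists as a whole 9 of 14 and 18 of 23 tested members rose, and whether rises went with a match was not tested.

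**Figure D2:**
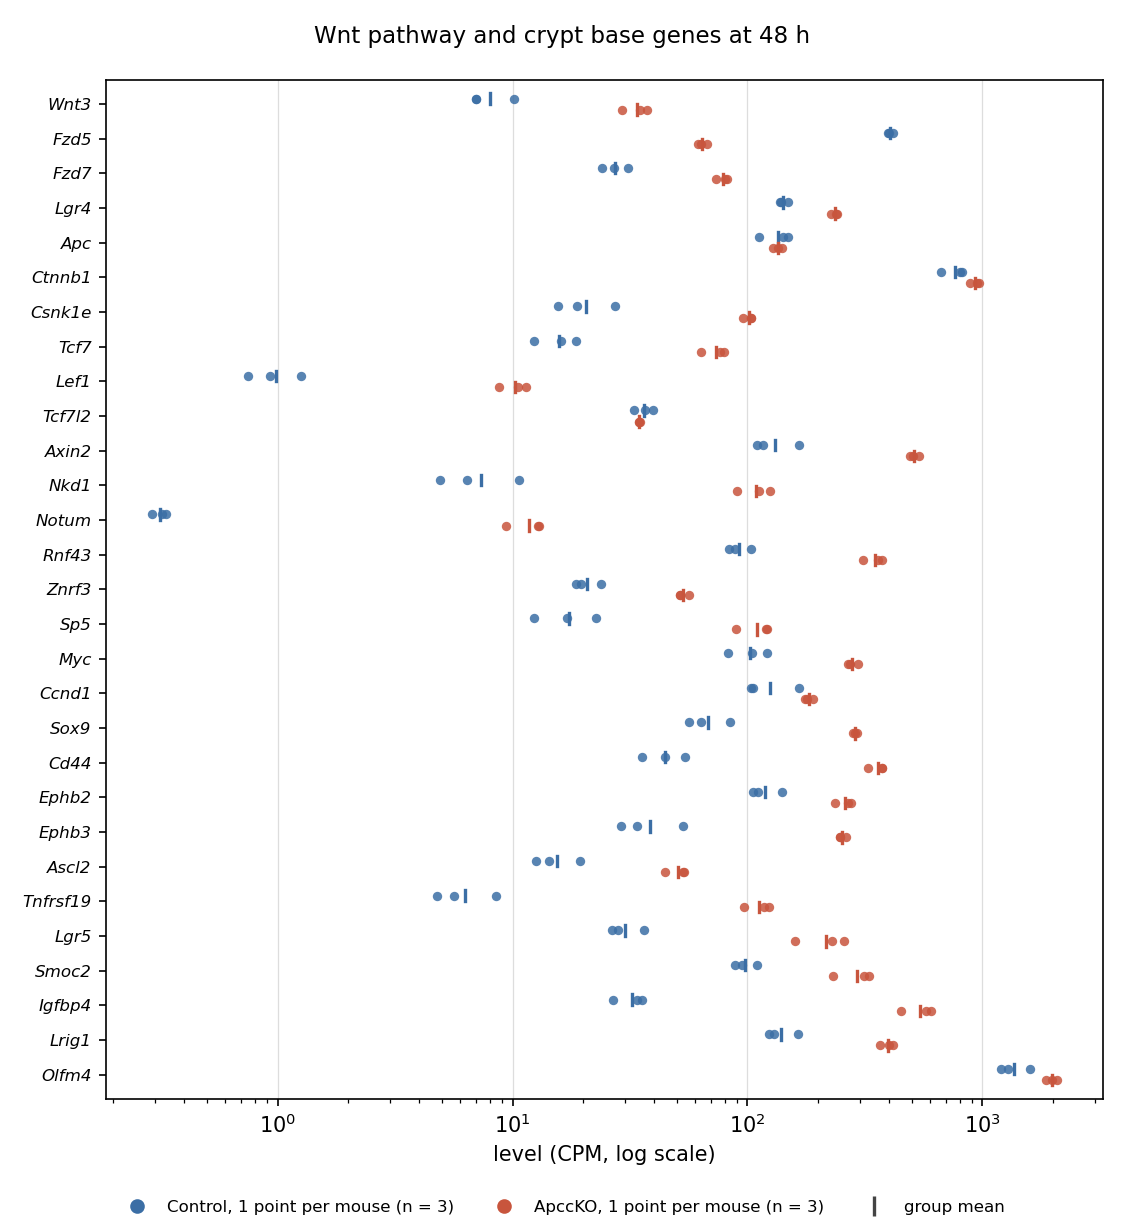
Levels in CPM (log scale) of 29 Wnt pathway and stem cell genes, from ligands and receptors to targets, in each of the 3 Control and 3 ApccKO libraries of day 2; points are mice and ticks group means. Notum, Tnfrsf19 and Igfbp4 lie furthest to the right of their Control values, Fzd5 lies left of them (61.7 to 67.4 CPM against 396 to 416 CPM), and the groups overlap for Apc and Tcf7l2.

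Most markers of crypt base stem cells rose. Of 31 tested, 25 were higher, 3 lower and 3 did not pass (median 1.51). Among the 38 lists, 19 symbols stand on more than 1. The summed level of these markers was 3330, 4000 and 3450 CPM in Control and 7680, 6900 and 7870 CPM in ApccKO libraries, 208% of Control (221% without Control replicate 2). Lgr5 (ENSMUSG00000020140), the R-spondin receptor that defines these cells, was at 28.2, 36.1 and 26.4 CPM in Control and 258, 159 and 230 CPM in ApccKO mice (2.83 ± 0.27, adjusted p = 9.8e-08). Igfbp4 (ENSMUSG00000017493), an insulin-like growth factor binding protein, was at 35.6, 33.9 and 26.8 CPM in Control and 605, 452 and 574 CPM in ApccKO mice (4.08 ± 0.18, adjusted p = 6.4e-12). Mex3a, an RNA-binding protein gene, rose from 8.07 ± 2.7 to 60.2 ± 1.8 CPM (2.89 ± 0.22, adjusted p = 2.6e-09), Smoc2 from 97.9 ± 11 to 291 ± 52 CPM (1.57 ± 0.19, adjusted p = 1.3e-06) and Lrig1, a restraint on ErbB signalling, from 139 ± 22 to 396 ± 26 CPM (1.51 ± 0.13, adjusted p = 1.9e-08). Olfm4, the abundant stem cell marker, was at 1200, 1600 and 1280 CPM in Control and 1980, 1870 and 2080 CPM in ApccKO mice. Its groups did not overlap, yet the difference did not pass (0.54 ± 0.24, adjusted p = 0.063; 0.044 without Control replicate 2 and 0.042 by DESeq2). The 3 markers that fell were Vdr (513 to 111 CPM), Tert (17.6 to 12.5 CPM) and Esrrg (20.6 to 15.2 CPM), named after their values were seen. Vdr encodes the vitamin D receptor, which mature enterocytes also express.

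**Figure D3:**
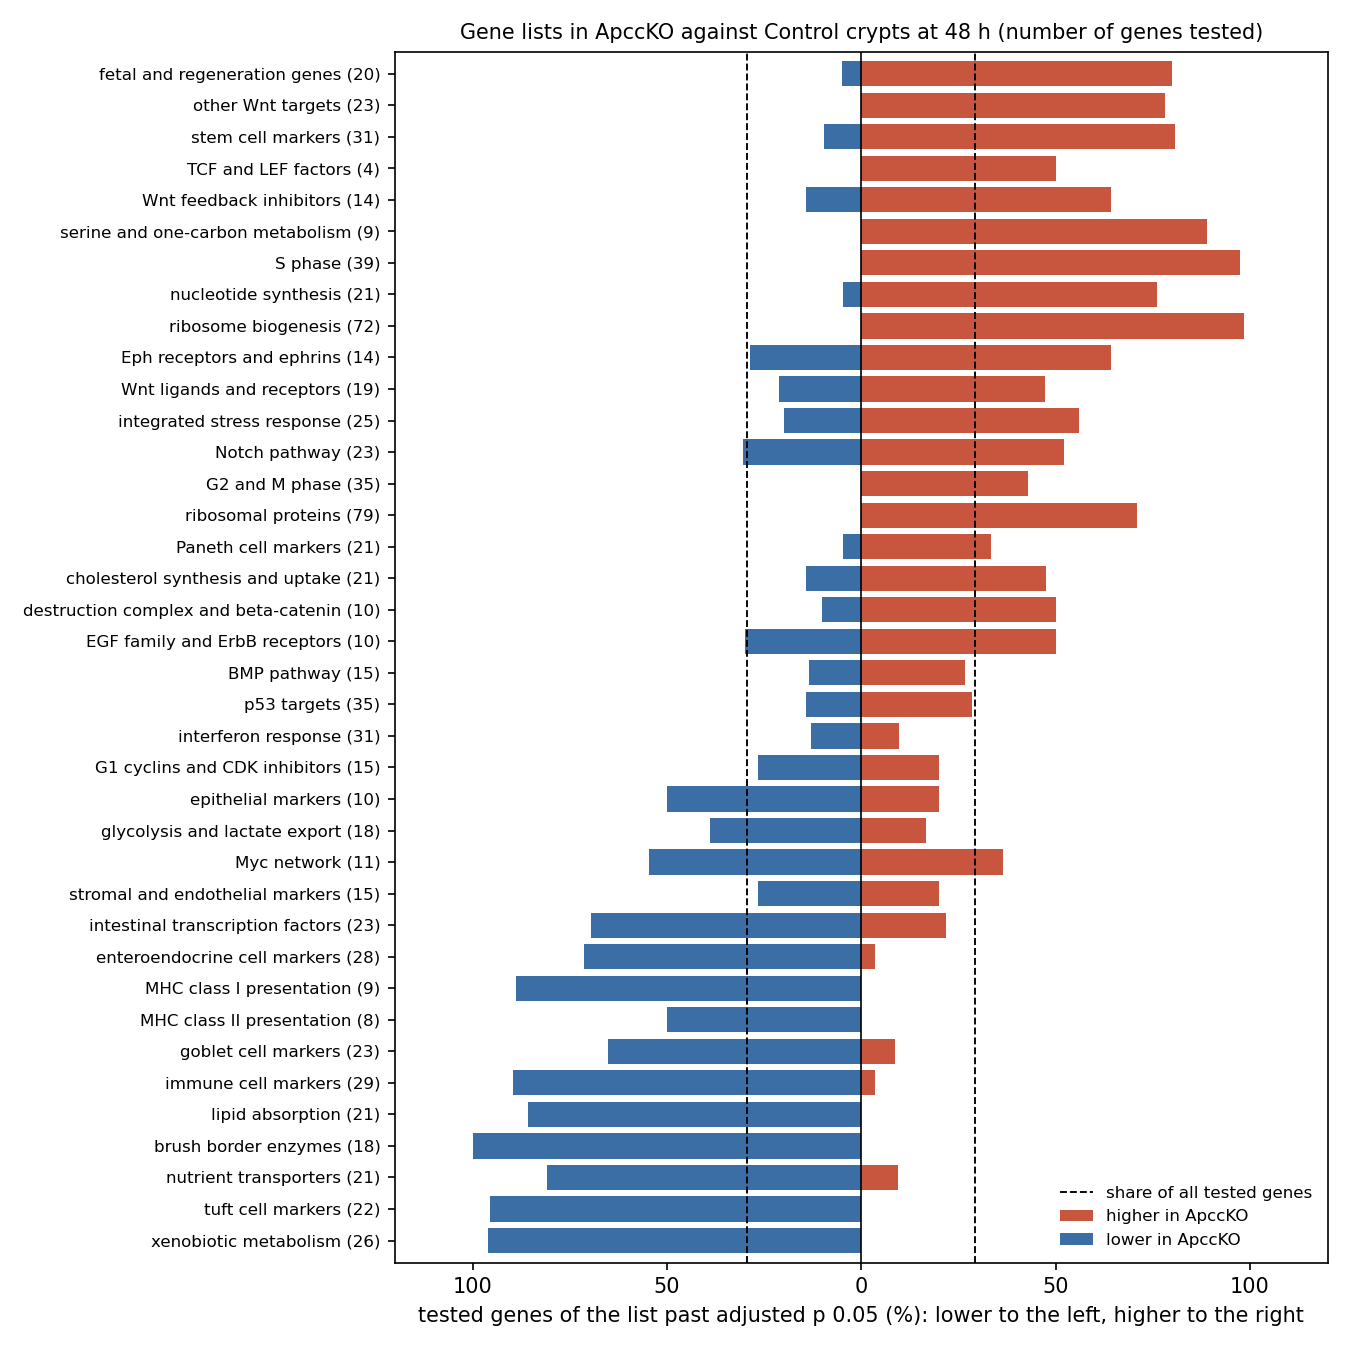
Percent of the tested genes of each of the 38 lists that were higher (right) or lower (left) in ApccKO than in Control crypts on day 2 at an adjusted p under 0.05; dashed lines mark the background over all genes tested, 29.2% higher and 29.4% lower. Ribosome biogenesis (71 of 72) and S phase (38 of 39) reach furthest to the higher side, and brush border enzymes (18 of 18) and xenobiotic metabolism (25 of 26) to the lower side.

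Genes of the absorptive enterocyte fell together. All 18 brush border enzyme genes were lower, by a median of -2.89, and none was higher (DESeq2 and unadjusted p-values under 0.05 also gave 0); the groups did not overlap in 16. Their summed level was 23400, 7000 and 19800 CPM in Control and 1790, 2700 and 1840 CPM in ApccKO libraries, 12.6% of Control and 9.78% without Control replicate 2. Each sum of an ApccKO mouse was below the lowest Control mouse. The sucrase-isomaltase gene Sis (ENSMUSG00000027790) was at 4660, 993 and 3530 CPM in Control and 70, 155 and 68.8 CPM in ApccKO mice (-4.96 ± 0.72, adjusted p = 1.7e-05). Lactase, Lct (ENSMUSG00000026354), was at 1140, 247 and 1140 CPM in Control and 20.3, 59.2 and 21.1 CPM in ApccKO mice (-4.65 ± 1.05, adjusted p = 0.0011). The aminopeptidases Anpep (from 2970 ± 1200 to 420 ± 95 CPM; -2.82 ± 0.43, adjusted p = 2.4e-05) and Enpep (from 920 ± 380 to 49 ± 24 CPM; -4.23 ± 0.59, adjusted p = 1.1e-05) fell in like manner. Replicate 2 was the lowest Control library for each of these 4 genes. Without it all 18 enzyme genes were still lower.

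The intestinal alkaline phosphatase gene Alpi (ENSMUSG00000079440), a standard marker of mature enterocytes, was at 1950, 570 and 1430 CPM in Control and 162, 207 and 99.3 CPM in ApccKO mice (-3.08 ± 0.57, adjusted p = 0.00019), with no overlap. The word CAAAGTCCA, bound by HNF4 factors, was searched on both strands of the windows of brush border and lipid absorption genes. It was found in 2 of 37 windows (5.41%, 30 of 39 symbols with a window), against 0.384% of all 32851 windows, in Alpi and Treh. The Alpi window is shown with the match in capitals, 19 bases before the start (RefSeq, GRCm38.p6, chr1:87101607-87101665, minus strand).
Alpi: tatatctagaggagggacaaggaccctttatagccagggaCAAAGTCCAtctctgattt
HNF4 factors are the nuclear receptors of enterocyte genes. Hnf4g (ENSMUSG00000017688) was at 510, 303 and 518 CPM in Control and 33.7, 36.9 and 29.9 CPM in ApccKO mice (-3.73 ± 0.27, adjusted p = 4.1e-09), while Hnf4a (ENSMUSG00000017950), its more abundant relative here, was at 1010, 1070 and 985 CPM in Control and 737, 844 and 788 CPM in ApccKO mice (-0.37 ± 0.08, adjusted p = 8e-04). Both fell without overlap between the groups. In the whole list of intestinal transcription factors 16 of 23 were lower and 5 higher, with a median of -0.7. Ppara, a nuclear receptor of fatty acid oxidation, fell from 63.2 ± 9 to 3.52 ± 1 CPM (-4.16 ± 0.29, adjusted p = 1.7e-09), Nr5a2 from 45.1 ± 1.3 to 10.2 ± 0.15 CPM (-2.15 ± 0.14, adjusted p = 7.3e-10) and Gata4, the jejunal GATA factor, from 277 ± 21 to 121 ± 1.2 CPM (-1.19 ± 0.1, adjusted p = 9.7e-09). Cdx2 fell from 262 ± 36 to 193 ± 12 CPM (-0.44 ± 0.11, adjusted p = 0.0021). Cdx1 did not pass (231 ± 47 and 245 ± 50 CPM, 0.09 ± 0.16, adjusted p = 0.67).

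Lipid absorption genes were lower in 18 of 21 (median -2.76), and 0 were higher by edgeR, DESeq2 or an unadjusted p under 0.05. There was 1 higher when Control replicate 3 was left out. Their sums were 21700, 6820 and 18500 CPM in Control and 2020, 3730 and 1950 CPM in ApccKO mice, 16.4% of Control and 12.8% without Control replicate 2. Mttp (ENSMUSG00000028158), which loads lipid onto chylomicrons, was at 2200, 829 and 1860 CPM in Control and 122, 209 and 128 CPM in ApccKO mice (-3.41 ± 0.45, adjusted p = 5.5e-06). Fabp1, a fatty acid binding protein gene, fell from 1060 ± 570 to 101 ± 57 CPM (-3.4 ± 0.57, adjusted p = 7.5e-05), and the apolipoproteins Apoa1 from 2020 ± 1100 to 281 ± 180 CPM (-2.85 ± 0.72, adjusted p = 0.0025) and Apob from 1690 ± 820 to 404 ± 100 CPM (-2.06 ± 0.44, adjusted p = 0.00069). The ApccKO mouse with the highest values of these genes was replicate 2, the library with the highest ApccKO sum.

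Nutrient transporters were lower in 17 of 21, higher in 2 (median -3.00), with sums of 8960, 2870 and 7230 CPM in Control and 1160, 1310 and 1020 CPM in ApccKO libraries (18.3% of Control, 14.3% without Control replicate 2). Slc5a1 (ENSMUSG00000011034), the sodium glucose transporter, was at 2660, 640 and 2190 CPM in Control and 213, 282 and 219 CPM in ApccKO mice (-2.94 ± 0.52, adjusted p = 0.00013). Fructose transporter Slc2a5 fell from 139 ± 83 to 8.19 ± 3.1 CPM (-4.08 ± 0.63, adjusted p = 3.4e-05), and the amino acid transporter Slc7a8 from 342 ± 100 to 11.9 ± 2.3 CPM (-4.84 ± 0.44, adjusted p = 8.5e-08). The 2 members that rose were Slc9a3, a sodium proton exchanger (92.7 to 217 CPM, 1.23, adjusted p = 0.00098), and the iron reductase gene Cybrd1 (7.97 to 90.8 CPM, 3.52, adjusted p = 1.5e-05), named after their values were seen.

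Xenobiotic metabolism, the conjugation and export of foreign compounds, had the lowest median of the 38 lists, -3.72 (-3.51 with Cyp1a1, which had 0 counts in all ApccKO libraries, set to its bound). Of 26 tested genes 25 were lower and 0 higher (DESeq2 and unadjusted p-values under 0.05 also gave 0). Cyp3a11 (ENSMUSG00000056035), a cytochrome P450, was at 191, 53.2 and 544 CPM in Control and 0.911, 7.62 and 2.56 CPM in ApccKO mice (-6.15 ± 1.25, adjusted p = 0.00045). The carboxylesterase gene Ces2a (ENSMUSG00000055730) was at 280, 121 and 398 CPM in Control and 2.65, 11.2 and 5.58 CPM in ApccKO mice (-5.36 ± 0.64, adjusted p = 2.3e-06). No ApccKO mouse reached a Control mouse in either. The export pump gene Abcg2 fell from 73.7 ± 18 to 12.6 ± 1.3 CPM (-2.54 ± 0.23, adjusted p = 5.2e-08). Gsta1 fell from 311 ± 170 to 3.32 ± 0.77 CPM (-6.55 ± 0.71, adjusted p = 8e-07) but 92.9% of its words also occur in related genes, 80.3% in Gm3776, so its separate value is uncertain.

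Markers of goblet cells, the mucus-secreting lineage, were lower in 15 of 23 and higher in 2 (median -1.25). The higher count was 4 without Control replicate 2, 3 without ApccKO replicate 1, and 1 without Control replicate 1 or ApccKO replicate 3. The sums were 14800, 12500 and 13700 CPM in Control and 2390, 3200 and 2380 CPM in ApccKO libraries, 19.5% of Control. Muc2 (ENSMUSG00000025515), the gel-forming mucin, was at 1360, 1540 and 1510 CPM in Control and 486, 495 and 409 CPM in ApccKO mice (-1.67 ± 0.14, adjusted p = 9.3e-09). Tff3 (ENSMUSG00000024029), the trefoil peptide, was at 845, 755 and 823 CPM in Control and 141, 185 and 162 CPM in ApccKO mice (-2.31 ± 0.12, adjusted p = 2.6e-11). The groups were separate in both. Fcgbp, an abundant mucus protein gene, fell from 7940 ± 910 to 1180 ± 320 CPM (-2.75 ± 0.18, adjusted p = 6.9e-10). Among the transcription factors of the lineage, Atoh1, needed for all secretory cells, fell from 38.6 ± 7.5 to 23.8 ± 3.3 CPM (-0.7 ± 0.15, adjusted p = 0.00049), and Spdef, which drives goblet maturation, was at 39.3, 59.9 and 38.4 CPM in Control and 44.4, 51.6 and 57 CPM in ApccKO mice (0.15 ± 0.17, adjusted p = 0.47; 0.044 without Control replicate 2).

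Enteroendocrine cell markers were lower in 20 of 28 and higher in 1, Reg4 (168 to 376 CPM, named after its value was seen), with a median of -0.93. The higher count was 2 by DESeq2 and without Control replicate 2 or ApccKO replicate 3. The sum was 1040, 1090 and 939 CPM in Control and 788, 817 and 651 CPM in ApccKO mice (73.6% of Control). Among the hormone genes, Gip (ENSMUSG00000014351), the incretin of K cells, was at 219, 159 and 195 CPM in Control and 28.3, 29 and 21 CPM in ApccKO mice (-2.87 ± 0.16, adjusted p = 8.4e-11). Gcg (ENSMUSG00000000394), the source of the incretin GLP-1, was at 22.1, 32.6 and 20 CPM in Control and 2.65, 3.43 and 2.65 CPM in ApccKO mice (-3.1 ± 0.3, adjusted p = 7.7e-08). Both sets of values were apart. The granule protein genes Chga (from 100 ± 12 to 59.2 ± 7.5 CPM; -0.76 ± 0.17, adjusted p = 0.00078) and Chgb (from 266 ± 26 to 158 ± 35 CPM; -0.75 ± 0.14, adjusted p = 0.00014) fell as well. Neurog3, the factor that starts the lineage, was at 5.94, 8.64 and 5.03 CPM in Control and 14.8, 10.6 and 6.79 CPM in ApccKO mice and did not pass (0.71 ± 0.3, adjusted p = 0.051). It passed by DESeq2 (adjusted p = 0.034), without Control replicate 2 (0.02) and without ApccKO replicate 3 (0.013).

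Tuft cell markers, from chemosensory cells of the epithelium, were lower in 21 of 22 (median -3.39), and 0 were higher by edgeR, DESeq2 or an unadjusted p under 0.05. The sums were 245, 227 and 307 CPM in Control and 51.2, 43.6 and 44.9 CPM in ApccKO libraries (17.9% of Control). Dclk1 (ENSMUSG00000027797), the kinase gene used to mark these cells, was at 28.9, 26.8 and 38 CPM in Control and 1.43, 1.58 and 1.21 CPM in ApccKO mice (-4.46 ± 0.38, adjusted p = 2.8e-08). Their cation channel gene Trpm5 (ENSMUSG00000009246) was at 30.3, 24.8 and 31.1 CPM in Control and 9.06, 6.4 and 6.93 CPM in ApccKO mice (-1.94 ± 0.25, adjusted p = 2.5e-06). Pou2f3 (ENSMUSG00000032015), their lineage factor, was at 6.28, 6.12 and 7.76 CPM in Control and 2.21, 1.76 and 2.28 CPM in ApccKO mice (-1.69 ± 0.32, adjusted p = 0.00014). In all 3 genes each ApccKO mouse was below each Control mouse. Ptgs1 (from 5.09 ± 0.51 to 0.196 ± 0.074 CPM; 316 against 13 counts, ratio 25.8, interval 14.9 to 49.0) and Alox5 (from 9.13 ± 2.7 to 0.209 ± 0.066 CPM; 553 against 14 counts, ratio 42.0, interval 24.8 to 77.3), enzymes of eicosanoid synthesis, are also made by immune cells, whose summed markers were at 15.9% of Control in the same libraries. The part of immune cells in these 2 genes was not tested.

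Markers of Paneth cells, which secrete antimicrobial peptides at the crypt base, had sums that overlapped: 9740, 14500 and 8330 CPM in Control and 11400, 11900 and 12600 CPM in ApccKO libraries (110% of Control, 132% without Control replicate 2). Of 21 tested markers 7 were higher, 1 lower and 13 did not pass (median 0.24). Lysozyme, Lyz1 (ENSMUSG00000069515), was at 4800, 6910 and 3910 CPM in Control and 5000, 4910 and 5460 CPM in ApccKO mice and did not pass (-0.02 ± 0.26, adjusted p = 0.95). Pla2g2a (ENSMUSG00000058908), a bactericidal phospholipase gene, was at 25.4, 41.1 and 22.2 CPM in Control and 256, 224 and 251 CPM in ApccKO mice (3.04 ± 0.31, adjusted p = 2.9e-07). Cd24a, a surface protein gene, rose from 176 ± 4 to 438 ± 30 CPM (1.31 ± 0.14, adjusted p = 2.8e-07). Lyz1 values overlapped, whereas those of Pla2g2a were wide apart. Defa24 did not pass (907, 1200 and 620 CPM in Control and 719, 824 and 659 CPM in ApccKO mice; -0.31 ± 0.3, adjusted p = 0.4) and 57.1% of its words also occur in other genes, 46.3% in Defa30. Lyz1 shares 34.2% with Lyz2, which averaged 8.43 and 2.47 CPM in the 2 groups.

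**Figure D4:**
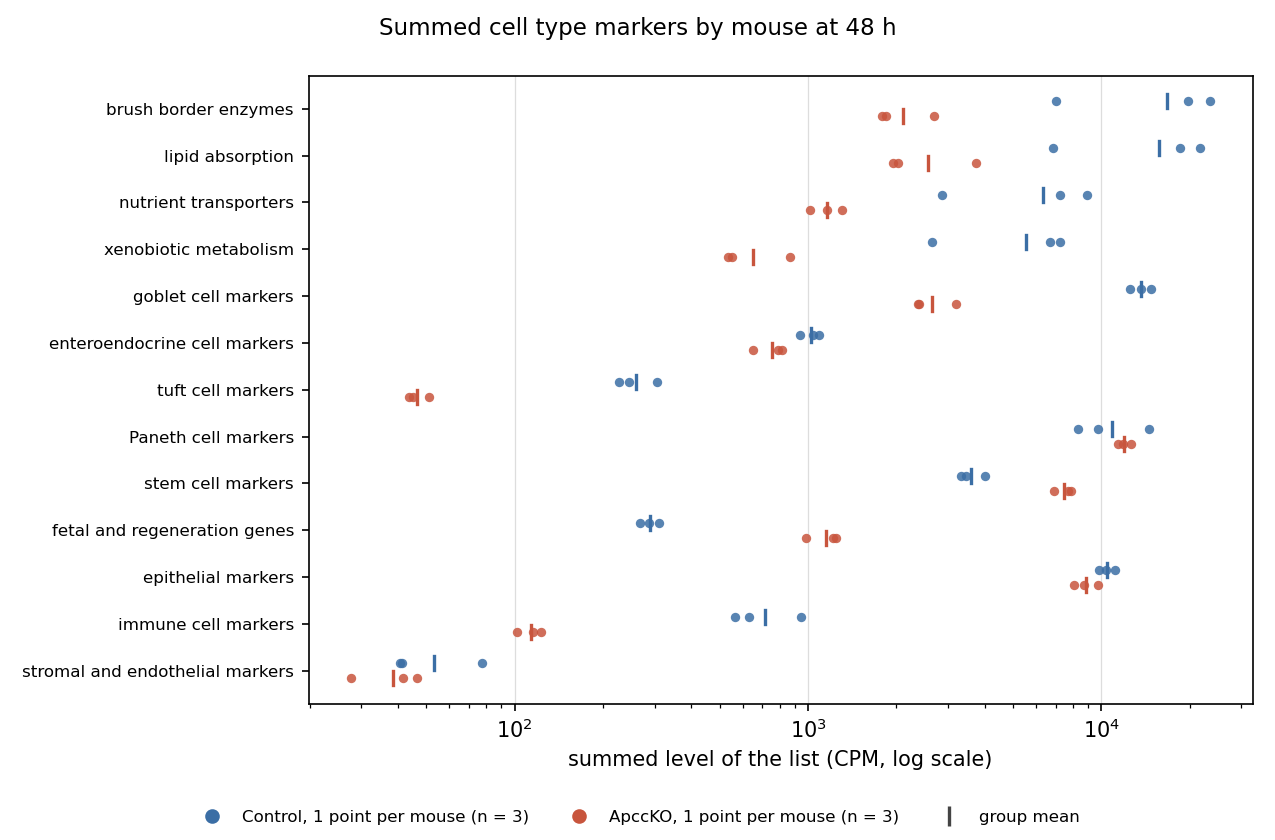
Summed CPM (log scale) of 13 marker lists in each of the 3 Control and 3 ApccKO libraries of day 2; points are mice. Sums of enterocyte, goblet, tuft and immune lists lie lower in every ApccKO library than in any Control library, stem cell and fetal lists lie higher, and the Paneth cell and stromal lists overlap.

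Notch signalling, which keeps crypt progenitors out of the secretory lineages, changed in parts. Of 23 tested genes 12 were higher, 7 lower and 4 did not pass (median 0.33). Among the receptors, Notch1 (ENSMUSG00000026923) was at 76.9, 90.4 and 72.3 CPM in Control and 136, 124 and 145 CPM in ApccKO mice (0.76 ± 0.18, adjusted p = 0.0014). The ligand genes Dll1 (from 54.7 ± 4.2 to 27.4 ± 3.5 CPM; -1 ± 0.12, adjusted p = 1.3e-06) and Jag1 (from 30.4 ± 2 to 18.7 ± 2.1 CPM; -0.7 ± 0.2, adjusted p = 0.0054) fell. The target gene Hes1, a repressor of Atoh1, rose from 56.7 ± 12 to 79.7 ± 4.8 CPM (0.49 ± 0.13, adjusted p = 0.0024). Dtx1, a ubiquitin ligase gene of the pathway, fell from 20 ± 8.7 to 2.45 ± 0.92 CPM (-3.03 ± 0.35, adjusted p = 7.5e-07).

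Eph receptors and ephrins position cells along the crypt axis. Ephb2 and Ephb3, the receptors of crypt base cells, rose as given above, and their ligand genes Efnb1 (ENSMUSG00000031217; 124, 118 and 120 CPM in Control and 55.3, 65.9 and 62.3 CPM in ApccKO mice; -0.98 ± 0.08, adjusted p = 5.3e-09) and Efnb2 (ENSMUSG00000001300; 106, 71.1 and 102 CPM in Control and 27.3, 38.8 and 28.9 CPM in ApccKO mice; -1.56 ± 0.16, adjusted p = 1.2e-07), of cells higher up, fell. Neither ligand gene had overlapping groups. In the whole list 9 of 14 genes were higher and 4 lower (median 0.63), with Efna4 among the higher (from 14 ± 2 to 41.2 ± 2.8 CPM; 1.56 ± 0.12, adjusted p = 3.1e-09).

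In the EGF family, which drives crypt cell proliferation, some ligand genes were raised. Of 10 tested genes 5 were higher and 3 lower (median 0.2). The ligand genes Areg (ENSMUSG00000029378) and Btc (ENSMUSG00000082361) were at 2.85, 2.56 and 3.91 CPM in Control and 41.2, 41.5 and 28.7 CPM in ApccKO mice (3.59 ± 0.44, adjusted p = 2.7e-06) and at 5.59, 4.79 and 6.91 CPM in Control and 33.1, 31.7 and 31.9 CPM in ApccKO mice (2.49 ± 0.27, adjusted p = 3.1e-07). Ereg rose from 1.79 ± 0.063 to 6.02 ± 1.7 CPM (1.75 ± 0.39, adjusted p = 0.00089). All 3 ligands were higher in every ApccKO mouse. The receptor gene Erbb2 fell from 212 ± 5.1 to 132 ± 8.9 CPM (-0.68 ± 0.08, adjusted p = 8.5e-07). Egfr did not pass (38.2, 38.6 and 37.7 CPM in Control and 34.7, 37.3 and 38.3 CPM in ApccKO mice; -0.05 ± 0.12, adjusted p = 0.73). BMP signalling, which opposes Wnt signalling along the crypt, had 4 of 15 genes higher and 2 lower (median 0.19), both shares under the background. The lower count was 1 without ApccKO replicate 3. Its ligand gene Bmp7 rose from 15.3 ± 1.1 to 45.6 ± 6.8 CPM (1.58 ± 0.17, adjusted p = 2.5e-07), the target gene Id1 from 40.4 ± 2.3 to 72.5 ± 13 CPM (0.84 ± 0.12, adjusted p = 8.9e-06), and the signal transducer gene Smad1 fell from 66.1 ± 1.7 to 46 ± 1.5 CPM (-0.52 ± 0.06, adjusted p = 1.8e-07).

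Genes of fetal and regenerating epithelium rose in 16 of 20 tested members and fell in 1, with a median of 2.9. The lower count was 0 without Control replicate 1 or 2 and without ApccKO replicate 1 or 2. Their sums were 267, 311 and 288 CPM in Control and 982, 1250 and 1220 CPM in ApccKO libraries, 399% of Control. Beside Clu, Anxa1 (ENSMUSG00000024659), an annexin gene, was at 1.11, 0.964 and 0.75 CPM in Control and 11.8, 24.8 and 24.4 CPM in ApccKO mice (4.43 ± 0.45, adjusted p = 2.1e-07). Ly6a (ENSMUSG00000075602), which encodes Sca-1, was at 0.756, 1.37 and 1.18 CPM in Control and 26.4, 33.5 and 36.4 CPM in ApccKO mice (4.82 ± 0.79, adjusted p = 5.9e-05). Both were barely counted in Control mice and well above that in every ApccKO mouse. Ccn2, a target of the coactivator YAP, had 3 against 136 counts (ratio 42.7, interval 14.3 to 209), and Yap1 itself (ENSMUSG00000053110) was at 105, 109 and 111 CPM in Control and 173, 178 and 177 CPM in ApccKO mice (0.7 ± 0.07, adjusted p = 4.7e-08). Of the words of Ly6a 31.9% also occur in related genes, 21.9% in Ly6c1.

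Ribosome biogenesis genes, which make and assemble ribosomal subunits in the nucleolus, were higher in 71 of 72 and lower in 0 (DESeq2 and unadjusted p-values under 0.05 also gave 0), with a median of 0.75, and the groups did not overlap in 71. Ncl (ENSMUSG00000026234), nucleolin, was at 464, 514 and 504 CPM in Control and 947, 974 and 915 CPM in ApccKO mice (0.94 ± 0.14, adjusted p = 8.2e-06). Nop56 (ENSMUSG00000027405), a core protein of box C/D particles, was at 120, 155 and 120 CPM in Control and 298, 254 and 254 CPM in ApccKO mice (1.03 ± 0.14, adjusted p = 3.3e-06). Polr1b, a subunit of RNA polymerase I, rose from 56.5 ± 7.4 to 103 ± 6.4 CPM (0.86 ± 0.13, adjusted p = 1.3e-05). Rrp1b, with the largest change of the list, rose from 39.5 ± 8.2 to 107 ± 12 CPM (1.43 ± 0.16, adjusted p = 4.8e-07). Nle1 itself is on this list. The E-box CACGTG, the word of Myc and its partners, was in 6 of 75 windows of these genes (8.0%, 65 of 73 symbols with a window), near the 6.02% of all windows.

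In the Myc network, 4 of 11 genes rose and 6 fell (median -0.5). Myc rose as above and Mycl (ENSMUSG00000028654) was at 38.2, 39.7 and 40.1 CPM in Control and 103, 115 and 117 CPM in ApccKO mice (1.5 ± 0.25, adjusted p = 4.4e-05), whereas Mycn was at 10.6, 14.2 and 8.51 CPM in Control and 2.78, 3.79 and 2.98 CPM in ApccKO mice (-1.81 ± 0.25, adjusted p = 5.8e-06). The antagonist genes Mxd1 (255, 77.4 and 231 CPM in Control and 26.5, 40.9 and 26.5 CPM in ApccKO mice; -2.58 ± 0.46, adjusted p = 0.00013) and Mxd4 (from 69.8 ± 4.1 to 41.7 ± 3.9 CPM; -0.75 ± 0.09, adjusted p = 1.5e-06) fell. Values of all 4 genes were separate between the groups, with Control replicate 2 again the lowest Control value of Mxd1.

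Ribosomal protein genes were higher in 56 of 79, lower in 0 (DESeq2 and unadjusted p-values under 0.05 also gave 0), with a median of 0.31; without Control replicate 1 and without Control replicate 3 the count was 36 and 37. Typical members were Rps6 (from 472 ± 17 to 617 ± 67 CPM; 0.39 ± 0.11, adjusted p = 0.0048) and Rpl5 (from 36.4 ± 1.1 to 49.8 ± 1.7 CPM; 0.45 ± 0.09, adjusted p = 0.00032). Of the list 4 genes were at least 2-fold higher. Rps3a1 (ENSMUSG00000028081) was at 5.99, 10 and 6.96 CPM in Control and 450, 475 and 482 CPM in ApccKO mice (5.92 ± 0.18, adjusted p = 1.1e-14). Rplp0 (ENSMUSG00000067274) was at 70.2, 85.3 and 60.3 CPM in Control and 1350, 1220 and 1410 CPM in ApccKO mice (4.2 ± 0.24, adjusted p = 1.2e-10). Rpl30 (60.7 to 264 CPM, 2.12 ± 0.48, adjusted p = 0.0011) and Rpl27 (24.2 to 53.5 CPM, 1.14 ± 0.17, adjusted p = 1.5e-05), named after their values were seen, were the others. Rpl34 was at 10.8, 13 and 134 CPM in the Control libraries in rising order and 156 to 220 CPM in ApccKO libraries, and did not pass (1.79 ± 1.08, adjusted p = 0.17). Across all 24 libraries Rps3a1 was at 5.57 to 10.7 CPM in the 12 Apc-intact and 449 to 627 CPM in the 12 Apc-lost ones, and Rplp0 at 60.3 to 101 and 1220 to 2720 CPM. Other genes hold 76.9% of the words of Rps3a1 (68.2% in Rps3a2) and 42.8% of those of Rplp0 (35.0% in the copy Gm8730). Summed with the copy Gm9625, Rps3a1 was at 67.8, 89.5 and 58.3 CPM in Control and 492, 505 and 519 CPM in ApccKO libraries; Rplp0 with Gm8730 was at 155, 200 and 129 against 1420, 1280 and 1460 CPM. The means of these sums were 71.9 and 505 CPM for the first pair and 161 and 1390 CPM for the second, a smaller ratio than for Rps3a1 (7.66 and 469 CPM) or Rplp0 (71.9 and 1330 CPM) alone. Rps3a2 was not added, and the part of reads split between copies was not tested. A batch along the code numbers and Apc loss cannot be told apart here either.

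Nucleotide synthesis genes were higher in 16 of 21 and lower in 1, with a median of 0.77. Cad (ENSMUSG00000013629), the first enzyme of pyrimidine synthesis, was at 128, 189 and 140 CPM in Control and 343, 300 and 319 CPM in ApccKO mice (1.08 ± 0.18, adjusted p = 5.9e-05). Ppat, the first step of purine synthesis, rose from 27.3 ± 2.1 to 67.5 ± 3.5 CPM (1.3 ± 0.13, adjusted p = 9.4e-08). In serine and one-carbon metabolism 8 of 9 genes were higher and 0 lower (DESeq2 and unadjusted p-values under 0.05 also gave 0; median 1.01), such as Shmt2 (ENSMUSG00000025403) at 59.6, 91.4 and 68.5 CPM in Control and 203, 175 and 199 CPM in ApccKO mice (1.39 ± 0.18, adjusted p = 2.6e-06) and Mthfd1l (from 26.1 ± 4.3 to 69.3 ± 2.9 CPM; 1.41 ± 0.13, adjusted p = 5e-08). Neither Cad nor Shmt2 had overlapping groups. In glycolysis 3 of 18 genes were higher and 7 lower (median -0.41). Ldha, lactate dehydrogenase, fell from 1260 ± 210 to 727 ± 47 CPM (-0.79 ± 0.14, adjusted p = 6.4e-05), Pfkp, a phosphofructokinase, from 290 ± 48 to 124 ± 11 CPM (-1.22 ± 0.14, adjusted p = 7.6e-07) and Pdk1 from 54.4 ± 4 to 32.4 ± 1.4 CPM (-0.75 ± 0.11, adjusted p = 1.4e-05), while hexokinase 2, Hk2, rose from 38.9 ± 11 to 164 ± 46 CPM (2.07 ± 0.23, adjusted p = 5.6e-07) and the glucose transporter gene Slc2a1 from 29.3 ± 3 to 46.7 ± 4.9 CPM (0.67 ± 0.11, adjusted p = 3.3e-05). Cholesterol synthesis and uptake genes were higher in 10 of 21 and lower in 3 (median 0.23).

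Cell cycle genes were read by phase. Of 39 S phase genes 38 were higher and 0 lower (DESeq2 and unadjusted p-values under 0.05 also gave 0), with a median of 0.81. Mcm2 (ENSMUSG00000002870), of the replicative helicase, was at 80.7, 113 and 86.4 CPM in Control and 225, 205 and 237 CPM in ApccKO mice (1.25 ± 0.15, adjusted p = 1.3e-06). Pcna (ENSMUSG00000027342), the polymerase clamp, was at 107, 149 and 115 CPM in Control and 219, 221 and 209 CPM in ApccKO mice (0.81 ± 0.13, adjusted p = 2e-05). Cyclin E1, Ccne1, rose from 10.8 ± 1.6 to 20.7 ± 1.6 CPM (0.93 ± 0.15, adjusted p = 2e-05). Every ApccKO library exceeded every Control library in these genes. The E2F words TTTCCCGC and TTTGGCGC were in 6 of 39 windows (15.4%, 32 of 39 symbols with a window), against 1.3% of all windows.

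G2 and M phase genes were higher in 15 of 35 and lower in 0 (DESeq2 and unadjusted p-values under 0.05 also gave 0), with a median of 0.32 and no member past 2-fold. This count moved with single libraries: it was 6, 8, 9 and 9 without Control replicate 1, Control replicate 3, ApccKO replicate 1 and ApccKO replicate 3, and 21 without Control replicate 2. Mki67 (ENSMUSG00000031004), the proliferation marker, was at 310, 412 and 356 CPM in Control and 367, 309 and 347 CPM in ApccKO mice and did not pass (-0.08 ± 0.16, adjusted p = 0.71). Kif20a, a kinesin of division, rose from 40.1 ± 6.8 to 64.2 ± 4 CPM (0.68 ± 0.14, adjusted p = 0.00048). Mki67 values overlapped. Among G1 regulators 3 of 15 were higher and 4 lower (median -0.18). Cdkn2b (ENSMUSG00000073802), the inhibitor p15, was at 94, 71.6 and 91.8 CPM in Control and 1.99, 6.99 and 3.77 CPM in ApccKO mice (-4.34 ± 0.36, adjusted p = 3.2e-08). Rb1 (ENSMUSG00000022105), the retinoblastoma gene, was at 85.2, 75.4 and 85 CPM in Control and 24.2, 24.4 and 25 CPM in ApccKO mice (-1.74 ± 0.09, adjusted p = 2.3e-11). Both fell clear of the Control range. Cdkn1a, the inhibitor p21, was at 135, 111 and 142 CPM in Control and 87.5, 122 and 73 CPM in ApccKO mice and did not pass (-0.46 ± 0.2, adjusted p = 0.062). It passed by DESeq2 (adjusted p = 0.047), without Control replicate 2 (0.044) and without ApccKO replicate 2 (0.011).

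Targets of p53 were higher in 10 of 35 and lower in 5 (9 without Control replicate 2), with a median of 0.12, near the background for rises and under it for falls. Mdm2 did not pass (50.8, 42.6 and 58.3 CPM in Control and 46.7, 49.1 and 41.4 CPM in ApccKO mice; -0.14 ± 0.18, adjusted p = 0.51). Bax, a pore former of apoptosis, rose from 70.1 ± 10 to 107 ± 6.8 CPM (0.61 ± 0.16, adjusted p = 0.0024), and so did Ddit4, from 80.9 ± 3 to 220 ± 33 CPM (1.45 ± 0.22, adjusted p = 1.7e-05). Sesn1 fell from 65 ± 19 to 13.8 ± 2.2 CPM (-2.23 ± 0.33, adjusted p = 1.5e-05). The integrated stress response list had 14 of 25 higher and 5 lower (median 0.37). The amino acid transporter gene Slc7a5 (ENSMUSG00000040010) was at 28, 38.6 and 28.6 CPM in Control and 174, 114 and 161 CPM in ApccKO mice (2.23 ± 0.22, adjusted p = 1.7e-07), Asns, asparagine synthetase, rose from 48.5 ± 11 to 104 ± 9.2 CPM (1.1 ± 0.17, adjusted p = 1.8e-05), and the glycyl-tRNA synthetase gene Gars from 125 ± 5.6 to 233 ± 2.2 CPM (0.9 ± 0.1, adjusted p = 5.7e-07). Among the regulators of the response, Atf4 did not pass (160, 150 and 153 CPM in Control and 165, 142 and 153 CPM in ApccKO mice; -0.01 ± 0.09, adjusted p = 0.92) and Ddit3 fell from 11.6 ± 1.8 to 6.42 ± 0.3 CPM (-0.85 ± 0.15, adjusted p = 9.4e-05).

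Immune cell markers in these crypt preparations were lower in 26 of 29 and higher in 1, Cd14 (6.42 to 18.7 CPM, named after its value was seen), by a median of -2.6. Their sums were 565, 947 and 628 CPM in Control and 102, 116 and 123 CPM in ApccKO libraries, 15.9% of Control (19% without Control replicate 2). Cd3e (ENSMUSG00000032093), of the T cell receptor complex, was at 17.4, 34.6 and 24.2 CPM in Control and 3.51, 2.84 and 3.35 CPM in ApccKO mice (-2.97 ± 0.26, adjusted p = 2.1e-08). Gzmb (ENSMUSG00000015437), a granzyme of cytotoxic cells, was at 60.7, 116 and 53.3 CPM in Control and 5.72, 7.04 and 7.07 CPM in ApccKO mice (-3.54 ± 0.35, adjusted p = 2.2e-07). Ptprc, the pan-leukocyte marker CD45, fell from 52.3 ± 17 to 7.8 ± 0.22 CPM (-2.75 ± 0.36, adjusted p = 4.9e-06). No marker was at 0 counts in all ApccKO libraries, and the ApccKO mice were all below the Control mice for the 3 genes. Stromal and endothelial markers overlapped as a sum, at 40.6, 77.6 and 41.3 CPM in Control and 41.5, 27.8 and 46.5 CPM in ApccKO libraries; of 22 on the list 15 were tested, 3 higher and 4 lower (median -0.575).

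Antigen presentation genes were read beside the immune markers, whose part in the values was not tested. Of 9 MHC class I genes 8 were lower and 0 higher (DESeq2 and unadjusted p-values under 0.05 also gave 0; median -1.06). B2m (ENSMUSG00000060802), the light chain, was at 710, 502 and 656 CPM in Control and 194, 231 and 201 CPM in ApccKO mice (-1.58 ± 0.27, adjusted p = 5.9e-05), and the immunoproteasome gene Psmb8 fell from 124 ± 22 to 38 ± 2.4 CPM (-1.71 ± 0.27, adjusted p = 2.7e-05). MHC class II genes were lower in 4 of 8 and higher in 0 (DESeq2 and unadjusted p-values under 0.05 also gave 0; median -1.22), a count that was 1 without Control replicate 1, Control replicate 2, ApccKO replicate 1 or ApccKO replicate 2, 2 without Control replicate 3 or ApccKO replicate 3, and 7 in a fit to the 6 libraries alone. H2-DMa, a peptide exchange factor, fell from 34 ± 6.5 to 11.2 ± 3 CPM (-1.61 ± 0.43, adjusted p = 0.0039). Cd74 was at 407, 616 and 389 CPM in Control and 153, 190 and 276 CPM in ApccKO mice and did not pass (-1.19 ± 0.61, adjusted p = 0.1). In the fit to the 6 libraries alone its adjusted p was 0.0082. On day 1 the class II list had a median of 0.326, and 0 of its genes were lower. Cd74 then averaged 66 CPM in Control and 85.3 CPM in ApccKO mice, and H2-DMa 8.72 and 7.86 CPM. For both genes the day 2 mean of each group was above its day 1 mean, most so in Control. The cause was not tested. Interferon response genes were higher in 3 of 31 and lower in 4 (median -0.11), both shares well under the background; without Control replicate 1 the lower count was 2, and 9 in a fit to the 6 libraries alone. Ifit2 rose from 4.05 ± 0.89 to 17 ± 4.6 CPM (2.06 ± 0.3, adjusted p = 7.9e-06), the chemokine gene Cxcl10 had 12 against 324 counts (ratio 25.4, interval 14.3 to 49.7), and Irf7 did not pass (39.7, 28.9 and 42.8 CPM in Control and 26.5, 31.7 and 19.5 CPM in ApccKO mice; -0.52 ± 0.42, adjusted p = 0.3).

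The response at 48 h was set beside that at 24 h, measured in 6 other mice of the same genotypes and treatment. Each day had its own Control mice. The difference between the effects of Apc loss was tested in the same model, and 187 genes (1.13%) passed, 87 (0.526%) with a more positive and 100 (0.604%) with a more negative effect on day 2. The median of the ribosome biogenesis list was 0.645 on day 1 and 0.75 on day 2. Tuft cell markers had a median of -1.14 on day 1 and -3.39 on day 2, and 10 of 22 had a more negative effect on day 2. Goblet cell markers had medians of -0.82 and -1.25, with 6 of 23 more negative. Of the 18 brush border genes 11 had been lower on day 1, when 49.7% of all genes tested were called in either direction, and all were lower on day 2 (medians -1.55 and -2.89). In the test of the difference between the days 0 of these 18 genes passed. Fetal and regeneration genes had medians of 1.29 and 2.9, and 0 of 20 passed that test. These medians describe the lists and were not tested between the days.

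Single genes show the step between the days. Dclk1 was at 19.7, 28.4 and 23.3 CPM in Control and 7.17, 6.74 and 12.6 CPM in ApccKO mice on day 1, an effect of -1.43 ± 0.32 against -4.46 ± 0.38 on day 2 (difference -3.03 ± 0.49, adjusted p = 0.0057). Fzd5 was at 346, 277 and 327 CPM in Control and 94.6, 105 and 113 CPM in ApccKO mice (-1.6 ± 0.1), with a further fall on day 2 (difference -1.06 ± 0.14, adjusted p = 0.0013). Tff3 was at 805, 852 and 782 CPM in Control and 389, 405 and 420 CPM in ApccKO mice (-1.01 ± 0.12; difference -1.31 ± 0.16, adjusted p = 0.0013). On both days the ApccKO mice were below the Control mice for these 3 genes, and the gap was wider on day 2. Notum was at 0.547, 0.93 and 0.394 CPM in Control and 1.91, 3.03 and 1.96 CPM in ApccKO mice on day 1 (1.88 ± 0.36; difference 3.3 ± 0.54, adjusted p = 0.0057). Vill, a villin-like gene, was at 1.31, 2.3 and 2.9 CPM in Control and 5.99, 3.37 and 2.26 CPM in ApccKO mice on day 1, where the groups overlapped (0.83 ± 0.43), and 1.05, 1.74 and 1.02 CPM in Control and 18.6, 31.7 and 31.1 CPM in ApccKO mice on day 2 (difference 3.54 ± 0.62, adjusted p = 0.0093). Ltbp4, a matrix protein gene (3.44, 2.57 and 3.05 CPM in Control and 4.81, 2.7 and 3.5 CPM in ApccKO mice on day 1, 1.51, 3.3 and 1.71 CPM in Control and 12.1, 9.79 and 13.3 CPM in ApccKO mice on day 2; difference 2.11 ± 0.34, adjusted p = 0.0057), and Pdlim7 (difference 2.75 ± 0.44, adjusted p = 0.0057) also had a more positive effect on day 2. Stem cell and Wnt target lists had medians of 1.57 and 1.66 on day 1 and 1.51 and 1.71 on day 2.

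**Figure D5:**
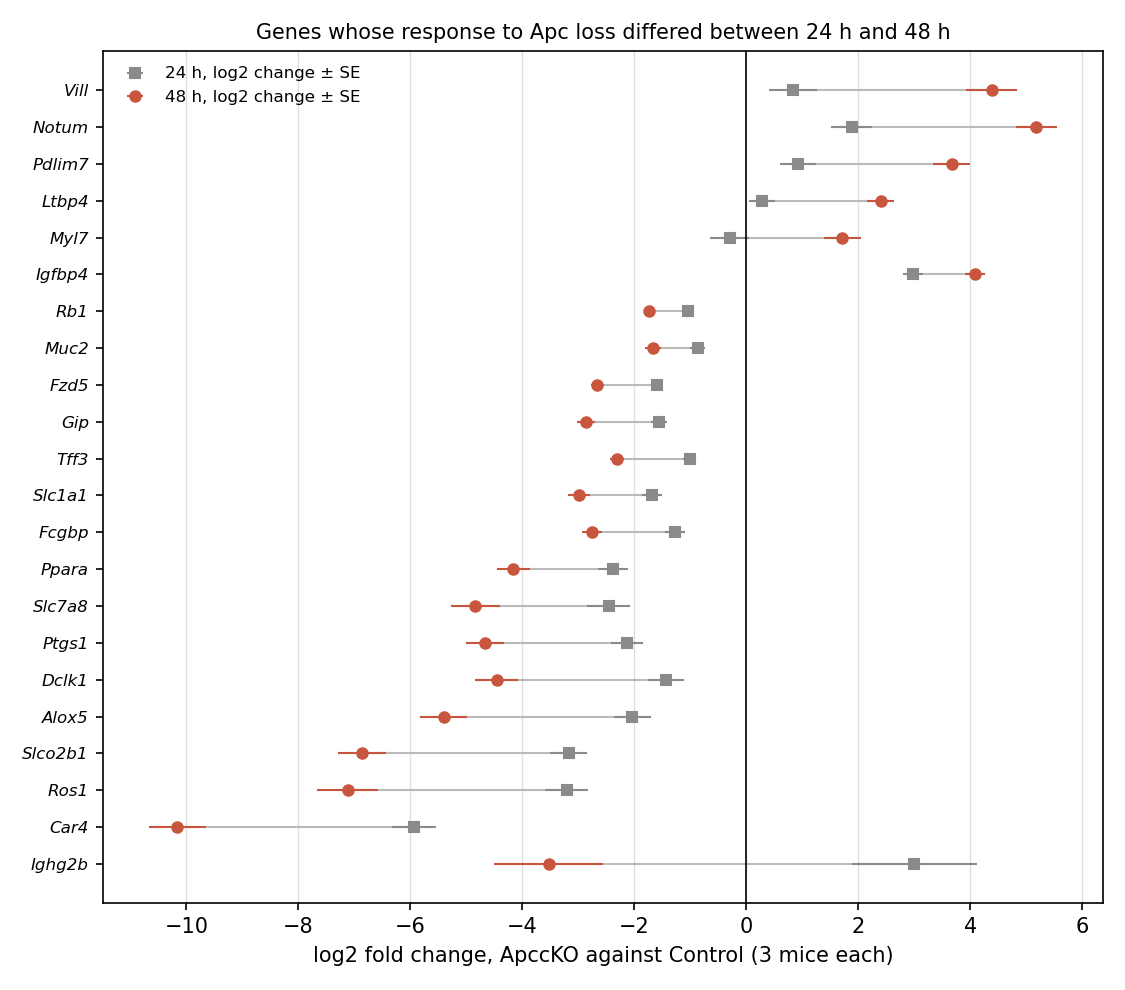
Log2 fold change of ApccKO over Control at 24 h (squares) and 48 h (circles) for 22 named genes whose effect differed between the days at an adjusted p under 0.05; bars are SE. Notum, Vill, Pdlim7 and Ltbp4 lie further right at 48 h, and Car4, Slco2b1, Alox5 and Dclk1 lie further left.

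The day 1 ApccKO libraries were not alike: Alpi was at 193, 819 and 680 CPM in replicates 1, 2 and 3. Without ApccKO replicates 2 and 3 of day 1 together, 2 genes passed, Tff3 among the named ones (adjusted p = 0.047). The single ApccKO library left was then assumed to vary like the other groups. Counts without 1 library lay between 66 (without Control replicate 3 of day 2) and 403 (without Control replicate 2 of day 2).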

How the data were processed

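The series holds poly(A) RNA libraries of jejunal crypts, 24 in all. The authors deposited estimated counts and TPM per gene, and per the submitters' processing notes used kallisto 0.43, DESeq, DESeq2 and build mm9. Which annotation release was used, and how genes were formed from transcripts, is not given in the sources used here. Deposited TPM values served for description only. Estimated counts were rounded and fitted with edgeR 4.0.16 (R 4.3.3, limma 3.58.1): 24 libraries in 8 groups, TMM, filterByExpr with a minimum count of 10 (16552 of 37620 genes), robust quasi-likelihood test, Benjamini-Hochberg threshold of 0.05. The SE is the log2 change over the root of F. CPM use TMM-scaled totals, and log values a prior count of 2. The biological coefficient of variation was 17.6%. Alternatives were DESeq2 1.42.0, its size factors, other filters, a replicate block, the compared libraries alone and leaving out libraries. Simulated data for the day 2 comparison held 15728 genes, of which 79, 62 and 59 better counted ones were changed 1.5, 2 and 4-fold. There edgeR recovered 45.6%, 74.2% and 94.9% of these, with 5 false calls among 143. All other genes were left unchanged, whereas 58.7% of genes were called in the data, so these rates do not carry over.

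Of 876 list symbols 873 matched the table. Shared sequence was measured as 31-base words of GENCODE M21 transcripts. Named genes were Apc and Nle1, the 12 most raised and 12 most lowered without overlap and at 5 CPM or more, preset members of each of 38 lists plus the 2 with the smallest p, and the 4 genes furthest in each direction of the day difference among those at 5 CPM or more over its 12 libraries. Provisional gene symbols were left out of both rankings. The members and lists were chosen with earlier results of these data known. Replicates are separate mice, 1 per library.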

Additional observations from a re-analysis of the deposited data

Results flagged for a closer look

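The effect of Apc loss differed between 24 h and 48 h, by a test of that difference (an interaction term in edgeR's quasi-likelihood fit, Benjamini-Hochberg adjustment over all genes tested), for 23 named genes. Values are the day 2 effect minus the day 1 effect on the log2 scale with their SE. In 17 genes the effect was more negative on day 2 and in 6 more positive. Some of these genes were named by this same difference or by a large day 2 effect, and others through the gene lists. The part of the naming in this split was not tested. Over all genes tested 100 (0.604%) were more negative and 87 (0.526%) more positive.

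Tuft cell genes were among the more negative: Dclk1 (-3.03 ± 0.49, adjusted p = 0.0057), the eicosanoid enzyme genes Alox5 (-3.36 ± 0.55, adjusted p = 0.0057) and Ptgs1 (-2.54 ± 0.46, adjusted p = 0.0093). Immune cells also make Alox5 and Ptgs1, and the part of these cells was not tested. Goblet cell genes were Tff3 (-1.31 ± 0.16, adjusted p = 0.0013), Fcgbp (-1.47 ± 0.25, adjusted p = 0.0059) and Muc2 (-0.8 ± 0.19, adjusted p = 0.046), and Gip (-1.31 ± 0.22, adjusted p = 0.0057) belongs to enteroendocrine cells. Enterocyte genes were Car4 (-4.21 ± 0.75, adjusted p = 0.0098), the transporter genes Slco2b1 (-3.68 ± 0.53, adjusted p = 0.0031), Slc7a8 (-2.37 ± 0.54, adjusted p = 0.043) and Slc1a1 (-1.32 ± 0.25, adjusted p = 0.013), and the nuclear receptor gene Ppara (-1.79 ± 0.37, adjusted p = 0.023). Fzd5 (-1.06 ± 0.14, adjusted p = 0.0013), Rb1 (-0.69 ± 0.12, adjusted p = 0.009) and Ros1 (-3.91 ± 0.75, adjusted p = 0.013) also fell further. The immunoglobulin gene Ighg2b (-6.53 ± 1.47, adjusted p = 0.042) was at 0.273, 0.274 and 1.08 CPM in Control and 7.58, 0.626 and 5.2 CPM in ApccKO mice on day 1 and 4.54, 41.2 and 13 CPM in Control and 2.52, 1.62 and 0.93 CPM in ApccKO mice on day 2, so it varied widely between mice of 1 group on both days. Sco2 (-8.96 ± 1.73, adjusted p = 0.022) had 0 counts in all ApccKO libraries of day 2, so this fitted value depends on the prior count and is no bound.

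More positive on day 2 were Notum (3.3 ± 0.54, adjusted p = 0.0057), Vill (3.54 ± 0.62, adjusted p = 0.0093), Pdlim7 (2.75 ± 0.44, adjusted p = 0.0057), Ltbp4 (2.11 ± 0.34, adjusted p = 0.0057), the myosin light chain gene Myl7 (2.01 ± 0.47, adjusted p = 0.042) and Igfbp4 (1.1 ± 0.23, adjusted p = 0.024). Of the 23 genes, 15 passed whichever of the 12 libraries was left out. The other 8 lost the call: Muc2 in all 12 fits, Ighg2b in 10, Slc7a8 in 9 and Myl7 in 8. Igfbp4 lost it in 7, Ppara and Sco2 in 6 each and Ros1 in 1. With the replicate number as a block, Muc2, Ighg2b and Slc7a8 did not pass either (adjusted p = 0.066, 0.062 and 0.06). Without ApccKO replicates 2 and 3 of day 1 together all 23 had the same sign and 1, Tff3, passed.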

How the results depend on the processing

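The count of genes changed on day 2, 9708, was between 8726 and 9742 under another test (DESeq2, 9742), DESeq2 size factors (9714), no filter (9295), a stricter filter (8993) and a fit to the 6 libraries alone (8726), and between 8564 and 9679 with 1 library left out. Of the 200 named genes called, 186 passed in each of the 12 alternatives, and no direction reversed. The day difference was less stable. Of 187 genes, 87 more positive, 100 more negative and 129 past 2-fold, DESeq2 gave 508, 218, 290 and 322. Without a filter it gave 118 genes, 45 more positive and 84 past 2-fold, and in a fit to the 12 libraries compared 108, 44, 64 and 78. With 1 library left out the counts ran from 66 to 403 in all, 24 to 191 more positive, 42 to 212 more negative and 55 to 240 past 2-fold. Without ApccKO replicates 2 and 3 of day 1 they were 2, 0, 2 and 2. The cause was not tested. Same-numbered libraries did not deviate together (correlations of 0.0687, -0.173 and -0.0596 on day 2 and -0.26, -0.142 and -0.0355 on day 1). Libraries of different numbers gave -0.225 to 0.3 on day 1. So few values cannot decide whether the replicate numbers pair the mice, and the labels do not say that they do. With the replicate number as a block 9668 genes were called on day 2, 9556 of them shared with the reported calls, and 130 in the day difference. Depth limits the genes with few counts, whose ratios carry counting intervals.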
